A study of Mus musculus with 10 samples.

Results

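Genes that write, erase or read chemical marks on chromatin, or that move nucleosomes, were examined in skeletal muscle of mice overexpressing the forkhead transcription factor FOXP1. They were found by name, as protein-coding genes of the Hdac, Sirt, Kdm, Kmt, Kat, Setd, Prdm, Chd, Smarc, Arid, Brd, Ncor, Mta, Mbd, Tet, Dnmt, Ezh, Phf and Ing families with a number or a letter and number after the family name. This gave 33 genes, from 16 of the 19 families, among the 3480 genes of the deposited table. RNA had been sequenced from the tibialis anterior, a muscle of fast fibres at the front of the shin, of 5 FoxP1iSkmTg and 5 Control mice, all female and 13 to 18 weeks of age. FoxP1iSkmTg mice had the genotype FoxP1flSTOPx HSA-MerCreMer, that is, a Foxp1 transgene behind a removable stop cassette and a tamoxifen-activated Cre recombinase driven by the human skeletal actin promoter, which is active in muscle fibres. Control mice had the FoxP1flSTOP transgene alone, and both groups were given tamoxifen at 80 mg/kg on 4 days, with muscles taken 3 days after the last dose. No group had Cre without the Foxp1 transgene, so effects of Foxp1 and of activated Cre cannot be told apart, and the sources used here do not give the strain background.

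The deposited table lists only genes with an unadjusted p under 0.05 in the comparison made by the authors. The 33 genes are therefore the members of these families that had already met that limit, and that each shows some difference is a property of the table. GENCODE M21, an annotation of the same genome build, holds 166 protein-coding genes whose names fit the rule. Of these 33 (19.9%) were listed, compared with 3038 of all 21951 protein-coding genes (13.8%). The 21951 include genes that were not among the 15846 over which the authors adjusted. Beside those 15846, the table lists 3480 genes, 151 of them outside that adjustment. The 19.9% and 13.8% therefore do not show an excess of chromatin genes among measured genes. The share listed was 36.4% for the Chd, Smarc and Arid genes together (12 of 33), not all of which are nucleosome remodellers. It was 8.82% for the Kmt, Setd, Ezh and Prdm genes (3 of 34), not all of which are histone methyl writers. These family shares are likewise of annotated genes, measured or not, so they do not compare how often measured genes were listed. No Kmt, Dnmt or Ezh gene was listed. The other 133 family members, among them Tet3, Hdac4, Hdac5, Ezh2 and Dnmt3a, were not analysed here.

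DNA in the nucleus is wound on histones, and how tightly it is packed is set by enzymes that work against each other. Acetyltransferases (Kat genes) loosen packing and bromodomain proteins (Brd) read the acetyl mark, whereas histone deacetylases (Hdac) and sirtuins (Sirt) remove it, often within corepressor complexes built on Ncor and Mta proteins. Many Set-domain proteins and some Prdm proteins add methyl groups, and Kdm proteins remove them. Chd and Smarc proteins, and some of the Arid proteins, belong to machines that use ATP to slide or evict nucleosomes, and TET enzymes oxidize methylated cytosine, the DNA mark that Mbd proteins were named for binding. In skeletal muscle the class IIa deacetylases are known as partners of the MEF2 transcription factors, and FOXP proteins are known to be found with the NuRD corepressor complex in other tissues.

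Foxp1 was measured first, as a check of the labels. It stood at 371, 232, 390, 270 and 260 normalized counts (read counts divided by a size factor for each library) in Control replicates 1 to 5 and at 5352, 2163, 5813, 1423 and 1289 in FoxP1iSkmTg replicates 1 to 5. Every FoxP1iSkmTg mouse lay above every Control mouse, and the 5 mice overexpressed the gene to unequal degrees. Across the 10 mice the size factors ran from 0.876 to 1.24 and the listed counts summed to between 6620970 and 8737660 reads. Of 12 muscle fibre markers 7 were listed and tested, and all 7 lay below Control in direction (median log2 fold change -0.48). Of these 3 passed as lower (Acta1, Neb and Pvalb) and 4 did not pass the test. The summed level of the 7 was 1521290 to 1800910 normalized counts in Control and 1138630 to 1316370 in FoxP1iSkmTg mice. No endothelial, mural, fibro-adipogenic, macrophage or Schwann cell marker of the lists used was listed. The lymphocyte, neutrophil, satellite cell, adipocyte and erythroid lists had 1 listed marker each. Itga7, the only listed gene of the 6 on the satellite cell list, was higher. It stood at 1546 to 1818 normalized counts in Control and 2335 to 2891 in FoxP1iSkmTg mice, and alone it does not measure satellite cells. The other 4 markers were at most 62.3 in any mouse. The part of these marker differences in the results below was not tested. Whole muscle was sequenced, so fewer cells of a type and less RNA per cell cannot be told apart.

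The comparison asked which chromatin genes differed between FoxP1iSkmTg and Control muscle. All 33 passed the filter on low counts, and 8 passed the threshold of an adjusted p under 0.05 (edgeR quasi-likelihood test, Benjamini-Hochberg adjustment). Tet1, Tet2, Arid5a, Hdac10, Chd4 and Kat14 rose, by 1.26-fold to 2.11-fold, and Hdac9 and Chd2 fell, by 1.78-fold and 1.67-fold. Over all 3115 tested genes 37.3% passed the same test, 17.5% in the higher and 19.8% in the lower direction. Among the chromatin genes the corresponding shares were 24.2% in all, 18.2% higher and 6.06% lower, so that the share of risers was near the background and the share that passed was below it. In 12 of the 33 (36.4%) the values of the 2 groups did not overlap, and this was so for 42.2% of all tested genes.

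Most of the differences were small. The absolute log2 fold change had a median of 0.36 for the chromatin genes and 0.38 for all tested genes, and 28 of the 33 chromatin genes differed by less than 1.5-fold. In direction 20 lay above and 13 below Control (60.6% above, against 50.2% of all tested genes and 52.3% of the tested protein-coding genes). The number that passed moved with the processing, with 11 higher and 2 lower when scaling factors were estimated from the listed genes (TMM) and 11 higher and 4 lower with the DESeq2 Wald test. Higher genes numbered 3 without Control replicate 2, 3, 4 or 5 and 2 without FoxP1iSkmTg replicate 2. Tet2, Hdac9, Hdac10 and Chd2 passed under all of these settings.

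**Figure D1:**
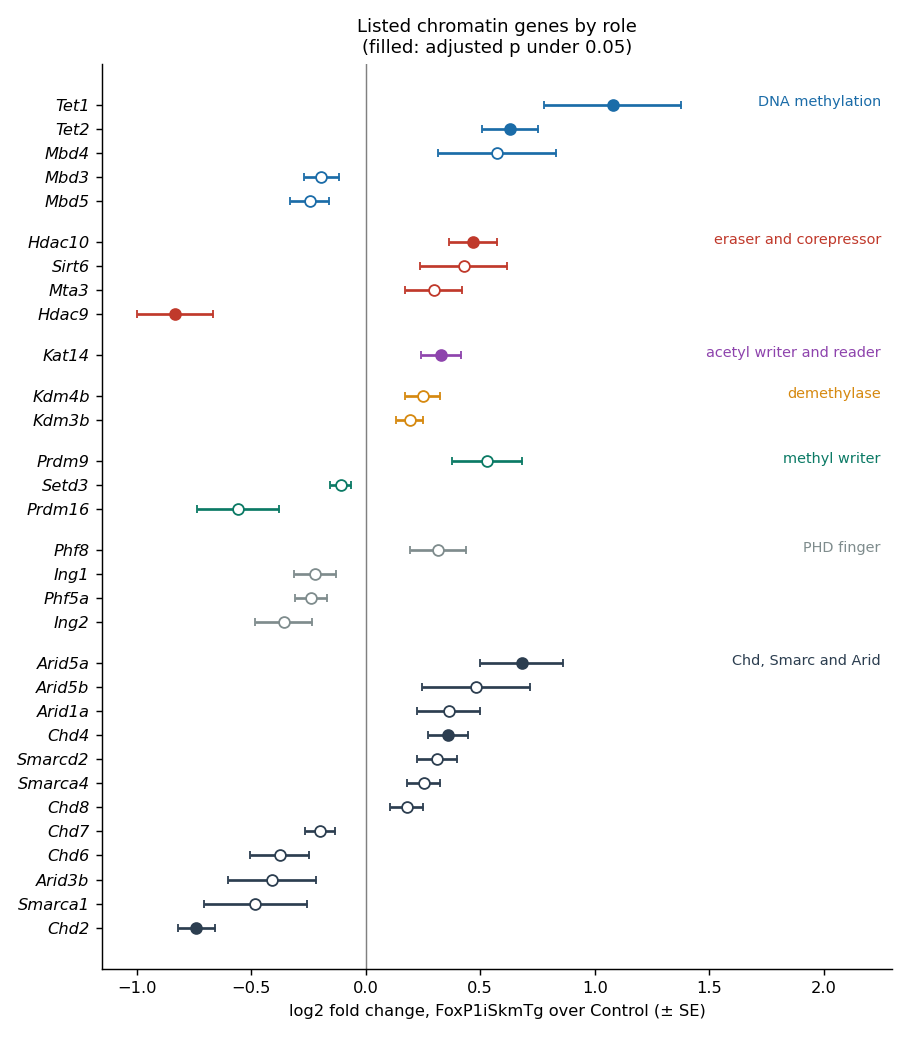
Log2 fold change of FoxP1iSkmTg over Control for 31 of the 33 listed chromatin genes, grouped by role. Points are edgeR estimates, bars are SE (5 mice per group), and filled points passed an adjusted p of 0.05. Tet1 at 1.08 is the highest value and Hdac9 at -0.83 the lowest.

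**Figure D2:**
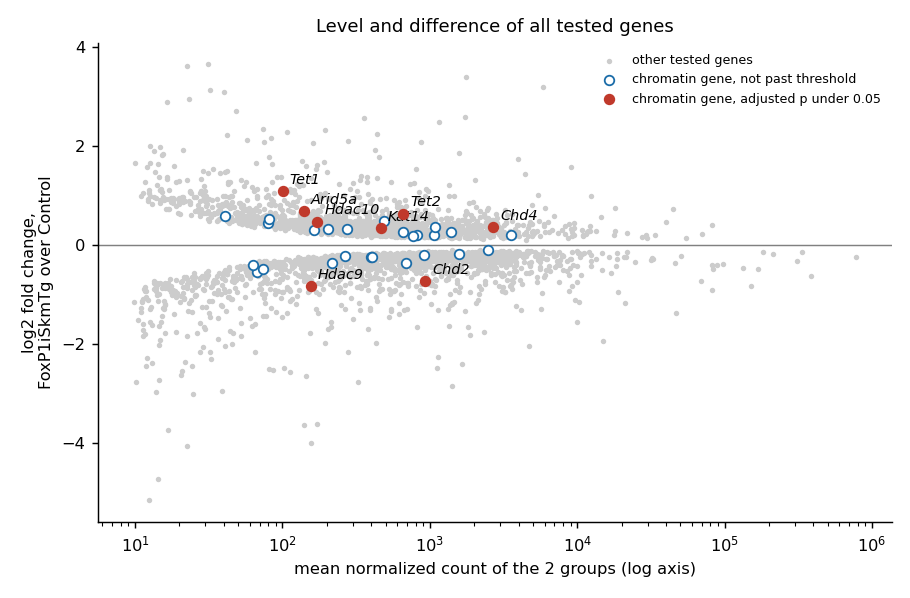
Mean normalized count of both groups (log axis) against log2 fold change for the 3115 tested genes (grey) and the 33 chromatin genes (open, not past the threshold; filled, adjusted p under 0.05). The empty band around 0 is where genes were not listed, and the chromatin genes lie close to the edges of that band, with none beyond 1.08 or below -0.83.

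Both listed TET genes rose. TET enzymes convert methylated cytosine to hydroxymethylcytosine, a first step in removing DNA methylation. Tet2 (chromosome 3, 133463679 to 133545139, mm10) stood at 578, 435, 492, 509 and 565 normalized counts in Control replicates 1 to 5. In FoxP1iSkmTg replicates 1 to 5 it stood at 880, 935, 881, 669 and 633. The lowest FoxP1iSkmTg mouse therefore lay above the highest Control mouse, and replicates 1 to 3 were higher than replicates 4 and 5. Tet2 averaged 516 ± 58.1 in Control and 799 ± 138 in FoxP1iSkmTg mice (SD, n = 5 each), a difference of 0.63 ± 0.12 (SE) on the log2 scale (edgeR adjusted p = 0.00784).

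Tet1 (chromosome 10, 62804570 to 62908996) stood at 96.2, 78.8, 51.6, 40.5 and 53.2 normalized counts in Control mice and at 164, 202, 143, 102 and 69.5 in FoxP1iSkmTg mice. The groups overlapped, since FoxP1iSkmTg replicate 5 lay below Control replicates 1 and 2. Its log2 fold change was the largest of the set, 1.08 ± 0.30 (SE), and passed narrowly (adjusted p = 0.0481 by the edgeR quasi-likelihood test). Leaving out single mice gave adjusted p-values of 0.0156 to 0.1145 by the same test, past the threshold for 3 of the 10 mice left out, and the limma-voom fit and the stricter filter on low counts did not pass it either. Tet1 is a low transcript, at 0.234 ± 0.0833 FPKM (fragments scaled to gene length and library size) in Control and 0.498 ± 0.190 in FoxP1iSkmTg mice (SD, n = 5 each), against 1.73 ± 0.195 and 2.68 ± 0.462 FPKM for Tet2.

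The start regions of these 2 genes differ in how many CpG sites they hold, the dinucleotide that TET enzymes and Mbd proteins act on. They are shown from RefSeq (build GRCm38.p6) because these genes gave the largest rises among the DNA methylation genes, from 250 bases before to 50 after an annotated start, on the strand of the gene (minus for both), with each CpG in capitals. The Tet2 window (chr3:133544341-133544640) holds 57 CpG and the Tet1 window (chr10:62887275-62887574) holds 17, and both RefSeq starts lie inside the genes as the deposited table bounds them.
Tet2: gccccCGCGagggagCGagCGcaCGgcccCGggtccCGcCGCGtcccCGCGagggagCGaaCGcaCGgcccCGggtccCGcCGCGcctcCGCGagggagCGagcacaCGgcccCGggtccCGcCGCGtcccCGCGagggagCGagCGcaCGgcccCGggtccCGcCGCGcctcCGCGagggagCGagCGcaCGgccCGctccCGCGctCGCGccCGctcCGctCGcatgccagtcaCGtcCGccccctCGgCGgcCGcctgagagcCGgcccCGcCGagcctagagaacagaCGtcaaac
Tet1: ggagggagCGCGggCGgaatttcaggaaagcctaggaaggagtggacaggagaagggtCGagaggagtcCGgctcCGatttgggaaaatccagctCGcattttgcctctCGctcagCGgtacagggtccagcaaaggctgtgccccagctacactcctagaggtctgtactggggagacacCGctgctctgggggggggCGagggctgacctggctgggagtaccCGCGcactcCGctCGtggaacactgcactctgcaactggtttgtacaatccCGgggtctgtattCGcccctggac

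The 3 listed Mbd genes did not pass. Mbd4, a DNA glycosylase that repairs mismatches at CpG sites, differed by 0.57 on the log2 scale (edgeR adjusted p = 0.251). Its counts were low, at 25.1 to 52.2 in Control and 38.7 to 73.6 in FoxP1iSkmTg mice, and the highest mouse of each group was replicate 5. Mbd3, a NuRD subunit that does not itself favour methylated DNA in mammals, differed by -0.19 on the log2 scale (edgeR adjusted p = 0.168), with 1440 to 1842 normalized counts in Control and 1335 to 1563 in FoxP1iSkmTg mice. It was the most abundant chromatin gene per length, at 47.5 ± 4.63 FPKM in Control and 41.5 ± 2.46 in FoxP1iSkmTg mice (SD, n = 5 each). Mbd5 differed by -0.24 on the log2 scale (edgeR adjusted p = 0.112), with overlapping groups.

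The 2 listed histone deacetylase genes moved in opposite directions. Hdac9 (chromosome 12, 34047580 to 34917095) encodes a class IIa deacetylase, which binds MEF2 and in mouse muscle responds to motor nerve activity. It stood at 180, 169, 232, 236 and 175 normalized counts in Control replicates 1 to 5 and at 96.0, 143, 78.3, 122 and 117 in FoxP1iSkmTg replicates 1 to 5. All FoxP1iSkmTg mice lay below all Control mice, and replicates 3 and 1 were the lowest. The means were 198 ± 32.8 and 111 ± 25.0 (SD, n = 5 each), a difference of -0.83 ± 0.17 (SE) on the log2 scale (edgeR adjusted p = 0.00933), the largest fall of the set. It passed with any single mouse left out, at adjusted p-values of 0.00768 to 0.0293 by that test.

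Hdac10 (chromosome 15, 89123307 to 89128700) encodes a class IIb deacetylase whose known substrate is the polyamine acetylspermidine rather than a histone. It stood at 123, 168, 139, 131 and 162 normalized counts in Control mice and at 198, 218, 189, 195 and 201 in FoxP1iSkmTg mice. The FoxP1iSkmTg values were close to each other and all above the highest Control mouse. The groups differed by 0.47 ± 0.11 (SE) on the log2 scale (edgeR adjusted p = 0.0180), and with single mice left out the adjusted p ran from 0.0178 to 0.0497.

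Hdac9 was the longest gene of the set, spanning 870 kb, and its 2 annotated start regions are shown because they hold few CpG, unlike the windows of the TET genes. They are again from RefSeq (GRCm38.p6, minus strand, CpG in capitals), with 0 CpG at chr12:34917046-34917345 and 3 at chr12:34528840-34529139. Over the 36 start windows found for 24 of the 33 chromatin genes the median was 22.5 CpG, against 20 for the windows of the other tested genes and 7 for all 32851 windows of the table.
Hdac9, outer start: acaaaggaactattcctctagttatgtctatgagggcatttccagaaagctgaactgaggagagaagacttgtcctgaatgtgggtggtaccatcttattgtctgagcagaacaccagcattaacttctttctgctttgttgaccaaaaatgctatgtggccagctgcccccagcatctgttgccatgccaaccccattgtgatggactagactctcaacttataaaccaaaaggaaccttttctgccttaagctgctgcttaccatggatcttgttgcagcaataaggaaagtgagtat
Hdac9, inner start: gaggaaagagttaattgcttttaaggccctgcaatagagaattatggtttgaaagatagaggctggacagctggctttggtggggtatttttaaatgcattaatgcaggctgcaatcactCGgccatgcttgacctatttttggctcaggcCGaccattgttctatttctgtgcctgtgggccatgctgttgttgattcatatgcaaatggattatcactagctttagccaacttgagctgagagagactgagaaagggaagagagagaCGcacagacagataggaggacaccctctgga

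Sirt6 and Mta3, also of the deacetylation and corepression group, did not pass, and both lay above Control in direction. Sirt6, an NAD-dependent deacetylase of chromatin, differed by 0.43 on the log2 scale (edgeR adjusted p = 0.235) at 46.8 to 87.0 normalized counts in Control and 67.7 to 107 in FoxP1iSkmTg mice. Mta3, a subunit of the NuRD complex, had a log2 fold change of 0.30 (edgeR adjusted p = 0.204).

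Among nucleosome remodellers, Chd2 fell and Chd4 rose. Chd2 (chromosome 7, 73426638 to 73541830) encodes an ATPase that in mouse muscle cells is known to place the histone variant H3.3 at muscle genes. It stood at 1333, 1268, 1101, 1099.7 and 989.6 normalized counts in Control replicates 1 to 5 and at 656, 729, 688, 697 and 700.4 in FoxP1iSkmTg replicates 1 to 5. The 5 FoxP1iSkmTg mice were nearly equal, although their Foxp1 counts were not, and all lay below the lowest Control mouse. The means were 1158 ± 139 and 694 ± 26.4 (SD, n = 5 each), a difference on the log2 scale of -0.74 ± 0.08 (SE), and the adjusted p of 0.000232 (edgeR) was the smallest of the set. Of the annotated exon bases of Chd2, 19.3% are shared with other genes, mainly 1810026B05Rik on the same strand, so its reads may include some of theirs.

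Chd4 (chromosome 6, 125095981 to 125130591) encodes the ATPase of the NuRD complex, which in mouse striated muscle is known for keeping cardiac and skeletal muscle genes apart. It stood at 2596, 2499.8, 2448, 2296 and 1954 normalized counts in Control mice and at 3369, 3079, 3177, 2668 and 2829.7 in FoxP1iSkmTg mice. The groups did not overlap, and FoxP1iSkmTg replicates 4 and 5 lay nearest to Control. The groups differed by 0.36 ± 0.09 (SE) on the log2 scale (edgeR adjusted p = 0.0262). Leaving out single mice gave adjusted p-values of 0.0164 to 0.0655 (edgeR), and the threshold was missed when Control replicate 4 or FoxP1iSkmTg replicate 1, 2 or 3 was the mouse left out.

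**Figure D3:**
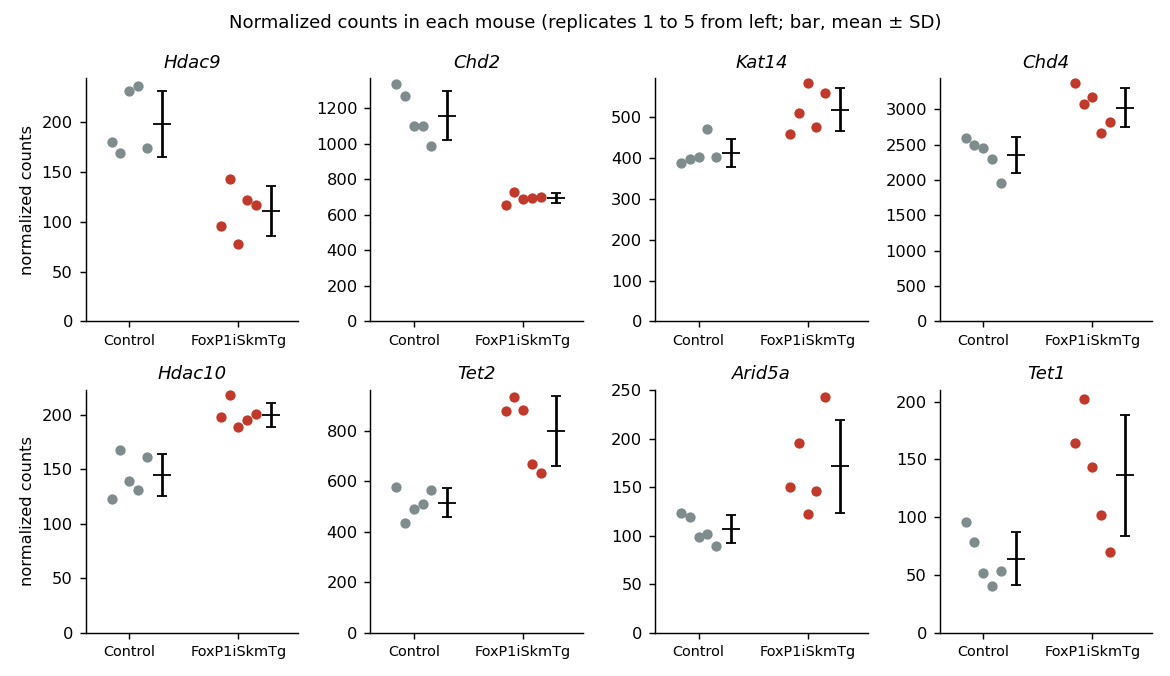
Normalized counts in each mouse for the 8 chromatin genes with an adjusted p under 0.05, with replicates 1 to 5 from left to right in each group and the mean ± SD beside them. Groups are apart for Hdac9, Chd2, Chd4, Hdac10 and Tet2, and overlap for Kat14, Arid5a and Tet1.

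Of the other Chd genes, Chd7 and Chd6 lay below and Chd8 above Control, and none passed. Chd7, the gene of CHARGE syndrome in humans, had 931 to 1087 normalized counts in Control and 779 to 926 in FoxP1iSkmTg mice, groups that did not overlap, with a log2 fold change of -0.20 (edgeR adjusted p = 0.101). Chd6 had a log2 fold change of -0.38 (0.115) and Chd8 one of 0.18 (0.178). Smarca1, the ATPase SNF2L of the ISWI family, had one of -0.48 (0.278), with 58.3 to 99.3 normalized counts in Control and 40.2 to 90.2 in FoxP1iSkmTg mice. The 5 Chd genes were thus split, with 2 above and 3 below Control.

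The 3 listed subunits of the SWI/SNF complexes whose names fit the rule all lay above Control by little and did not pass. Smarca4, the ATPase also called BRG1, stood at 1144 to 1334 normalized counts in Control and 1365 to 1665 in FoxP1iSkmTg mice (log2 fold change 0.25, edgeR adjusted p = 0.0598). Smarcd2, the subunit BAF60b, stood at 212 to 266 and 278 to 329 (0.31, adjusted p = 0.0537). In both genes the groups did not overlap, and both passed with TMM scaling and with the DESeq2 Wald test. Arid1a, the DNA-binding subunit BAF250a, differed by 0.36 on the log2 scale (edgeR adjusted p = 0.149), and its groups overlapped by 2 Control mice, replicates 1 and 3.

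Arid5a rose and Arid5b, its relative, did not pass. Both carry the AT-rich interaction domain, and Arid5a is also known in mice as an RNA-binding protein that stabilizes the interleukin-6 message. Arid5a (chromosome 1, 36307733 to 36324029) stood at 124, 119.9, 99.1, 102 and 89.3 normalized counts in Control mice and at 151, 196, 123, 146 and 243 in FoxP1iSkmTg mice, with FoxP1iSkmTg replicate 3 just below Control replicate 1. The groups differed by 0.68 ± 0.18 (SE) on the log2 scale (edgeR adjusted p = 0.0416), and it passed for 2 of the 10 single mice left out (0.0211 to 0.0987). Its 2 highest mice were FoxP1iSkmTg replicates 5 and 2.

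Arid5b, which acts with the demethylase Phf2, stood at 398, 451, 418, 501 and 272 normalized counts in Control mice and at 758, 806, 543, 389 and 353 in FoxP1iSkmTg mice. Replicates 1 and 2 of FoxP1iSkmTg were far above Control, whereas replicates 4 and 5 lay within its range (log2 fold change 0.48, adjusted p = 0.317 by edgeR). Arid3b, a DNA-binding protein of the same domain family, had a log2 fold change of -0.41 (0.277).

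Of acetyl writers and readers Kat14 rose. Kat14 (chromosome 2, 144368983 to 144407676), a subunit of the ATAC acetyltransferase complex, stood at 386, 396, 403, 471 and 400.4 normalized counts in Control mice and at 459, 510.1, 583, 475 and 557 in FoxP1iSkmTg mice. Only Control replicate 4 overlapped the FoxP1iSkmTg values, above replicate 1. The groups differed by 0.33 ± 0.09 (SE) on the log2 scale (edgeR adjusted p = 0.0382). Of 10 fits that each left out a mouse, 3 passed (edgeR adjusted p = 0.0255 to 0.0923). In this gene 14.8% of the annotated exon bases are shared with Pet117 on the same strand.

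The methyl writer and demethylase groups had no member past the test. Kdm3b and Kdm4b, demethylases of lysine 9 of histone H3, had log2 fold changes of 0.19 (adjusted p = 0.0753 by edgeR) and 0.25 (0.0772), and both passed with TMM scaling and with the DESeq2 Wald test. Kdm3b stood at 701 to 796 normalized counts in Control and 832 to 904 in FoxP1iSkmTg mice, without overlap, and 24.6% of its annotated exon bases are shared with Gm26538 on the opposite strand. Setd3, which methylates a histidine of actin, had the smallest difference of the set, a log2 fold change of -0.11 (edgeR adjusted p = 0.211), but its groups did not overlap, at 2513 to 2650 in Control and 2386 to 2410.5 in FoxP1iSkmTg mice.

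The 2 Prdm genes lay on either side of Control. Prdm9, the methyltransferase that places recombination sites in meiosis, stood at 68.5, 75.3, 60.1, 66.7 and 62.2 normalized counts in Control mice and at 112, 117, 76.2, 96.7 and 78.6 in FoxP1iSkmTg mice. All FoxP1iSkmTg mice were above all Control mice, but the log2 fold change of 0.53 ± 0.15 (SE) did not pass (adjusted p = 0.0609 by the edgeR quasi-likelihood test). Prdm9 did pass with TMM scaling, with the DESeq2 Wald test and when FoxP1iSkmTg replicate 3 or 5 was left out. Prdm16, known for directing cells towards brown fat and away from muscle, stood at 63.8 to 91.3 in Control and 39.3 to 67.4 in FoxP1iSkmTg mice (log2 fold change -0.56, adjusted p = 0.0899 by edgeR). It passed with the DESeq2 Wald test.

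The 4 PHD finger genes did not pass. Ing1 and Ing2, which read methylated histone H3 within Sin3 deacetylase complexes, had log2 fold changes of -0.22 (adjusted p = 0.186 by edgeR) and -0.36 (0.110). Phf8, a histone demethylase of the X chromosome, had one of 0.32 (0.159), and only replicates 1 to 3 of FoxP1iSkmTg lay above the Control range of 165 to 192 normalized counts. Phf5a, which despite its name is a subunit of the SF3b splicing complex, stood at 405 to 493 in Control and 358 to 383 in FoxP1iSkmTg mice, without overlap (log2 fold change -0.24, adjusted p = 0.0603 by edgeR). With the DESeq2 Wald test Phf5a passed.

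Across mice the chromatin genes above Control did not differ equally in all FoxP1iSkmTg animals. Over the 20 genes above Control the median log2 ratio to the Control mean was 0.40, 0.37, 0.40, 0.20 and 0.24 in FoxP1iSkmTg replicates 1 to 5, and it was between -0.14 and 0.04 in Control mice. Replicates 4 and 5, the 2 with the fewest Foxp1 reads, thus had the smallest medians, and in 9 of these 20 genes (45%) both of them lay nearest to Control, compared with 28.3% of the 1563 tested genes above Control. Over the 13 genes below Control the medians were -0.35, -0.25, -0.33, -0.41 and -0.30, and replicates 4 and 5 were the 2 nearest in 1 of 13 (7.69%), compared with 22.4% of the 1552 tested genes below Control. Replicates 1 and 3, the 2 with the most Foxp1 reads, were the 2 farthest from Control in 6 of the 20 genes above (30%, against 35.6% of tested genes above Control) and in 5 of the 13 below (38.5%, against 40.1%). These genes were listed for their difference between the groups, the mice are few, and the counts are a description without a test.

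**Figure D4:**
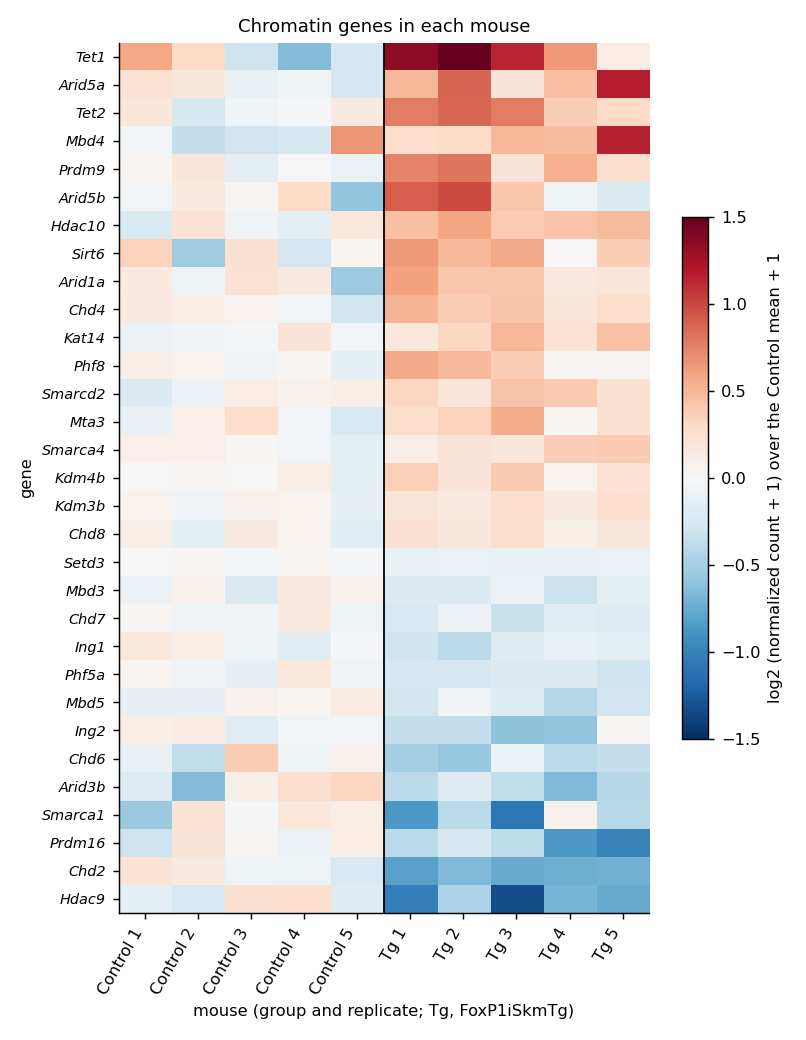
Log2 ratio of each mouse to the Control mean (normalized counts, with 1 added to both) for 31 of the 33 chromatin genes, ordered by log2 fold change, with Control replicates 1 to 5 left and FoxP1iSkmTg replicates 1 to 5 right of the line. Tet1 and Arid5b are reddest in FoxP1iSkmTg replicates 1 and 2 and Tet2 in replicates 1 to 3, all 3 are paler in replicates 4 and 5, whereas Chd2 is evenly blue.

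The 33 genes were mostly long and low in level. Their genomic span had a median of 76.8 kb (5.39 to 870 kb), compared with 28.5 kb for the tested protein-coding genes, and their median level was 2.88 FPKM against 5.97. Levels ran from 0.366 FPKM for Tet1 to 44.5 FPKM for Mbd3, averaged over all 10 mice, with 7 genes under 1 FPKM and 6 over 10. The genes lay on 17 chromosomes. In 13 of them some exon bases are shared with another annotated gene, over 10% in Kat14, Kdm3b and Chd2.

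Start regions of these genes were searched for the forkhead word TGTTTAC on both strands. It was found in 1 of the 24 genes with a RefSeq start window (4.17%), compared with 3.21% of the other tested genes and 4.05% of all genes in the table of windows. The match was in Phf8, 230 bases before its start (chrX:151520431-151520459, GRCm38.p6, plus strand), and is shown with its flanks, the word in capitals. It is a match of letters in a short window only.
Phf8: ttccaactccgTGTTTACccggggttacg

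Other chromatin genes, outside the name rule, were read from a list of 138. Of these 20 were listed and 19 tested, with 3 higher, 4 lower and 12 not past the test. Over all 3115 tested genes 37.3% passed, 17.5% higher and 19.8% lower, so the share that passed was near the background. The median log2 fold change was -0.14 against 0.13 for all tested genes. Mllt3, the YEATS-domain protein AF9 that reads acylated histones, fell the most, from 1818, 1853, 1966, 1812 and 1684 normalized counts in Control mice to 616, 1043, 636, 1284 and 975 in FoxP1iSkmTg mice. Its log2 fold change was -1.003 ± 0.18 (SE, adjusted p = 0.00471 by the edgeR quasi-likelihood test), and the groups did not overlap. Jade1, a scaffold of an acetyltransferase complex, was 1.41-fold lower, Pcgf5, of Polycomb complexes, 1.27-fold lower and Cbx5, the heterochromatin protein HP1 alpha, 1.19-fold lower.

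Among the higher genes of that list, Carm1, an arginine methyltransferase, rose 1.28-fold, Baz1b, the remodeller subunit WSTF, 1.24-fold and Smyd1, a methyltransferase of heart and skeletal muscle that also acts on sarcomere proteins, 1.19-fold. Carm1 stood at 958 to 1005 normalized counts in Control and 1084 to 1387 in FoxP1iSkmTg mice, and the groups were apart in Baz1b and Smyd1 too. Jade1 alone of the 7 had overlapping groups. Over all tested genes, past the threshold or not, groups did not overlap in 42.2%. Cbx5 passed for 2 of the 10 single mice left out and did not pass with TMM scaling, Jade1 missed the threshold when Control replicate 3, Control replicate 4 or FoxP1iSkmTg replicate 1 was left out, and the other 5 passed with any single mouse left out.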

How the data were processed

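Poly-A RNA of 10 tibialis anterior muscles was sequenced. For mm10, HISAT2 2.0.5 and DESeq2 1.20.0 appear in the submitters' processing notes but STAR and HTSeq in the published methods, so the aligner is not settled, and whether counting used strand is not stated. The authors deposited read counts, a normalized signal (each count over the size factor of its library) and FPKM per mouse. Columns of their own comparison, which the authors also deposited, hold a log2 fold change and a p-value, raw and adjusted, and another column holds gene length. None of the comparison columns was used as a result. The p-values served only to find the listing limit (highest 0.04998) and the 15846 genes that the authors adjusted over.

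The test was the two-sided edgeR 4.0.16 quasi-likelihood test in R 4.3.3, on raw counts with size factors recovered as counts over deposited normalized values, and filterByExpr (minimum count 10). Benjamini-Hochberg adjustment was over 15846 genes, with the p-values of unlisted genes assumed larger. The spread between mice was modelled from the listed genes alone, which were listed for a low p, so SE and adjusted p may be too small. SE is the log2 fold change divided by the square root of F. The rule was to name every listed member, of which 2 are counted but not reported singly here. Values in all mice are given for members past the threshold without overlap, and, added after their values were seen, for Tet1, Arid5a, Kat14, Prdm9, Arid5b and Mllt3. Of the other chromatin genes up to 10 past the threshold are named. Members and lists were chosen with earlier results of these data known. Alternatives were TMM scaling, other count filters (none and 50), DESeq2 1.42.0, limma-voom (limma 3.58.1), adjustment over the 3115 tested genes, a replicate block and leaving out each mouse. Scripts were tested on simulated data, which did not include a selection of genes by p. Library totals implied by FPKM, 15510420 to 21989419, followed the size factors within -0.166% to 0.154% and are not taken as depth. Replicates are separate mice.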

Additional observations from a re-analysis of the deposited data

Results flagged for a closer look

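Each named gene gave a group of 5 values in either genotype, 78 in all. In 3 of these the highest or lowest mouse stood apart from the rest, and about 3.9 would do so by chance. Mbd4 was highest in replicate 5 of both groups, at 52.2 normalized counts in Control (next 31.5) and 73.6 in FoxP1iSkmTg mice (next 46.4). Kat14 was highest in Control replicate 4 at 471 (next 403).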

How the results depend on the processing

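None of the 33 chromatin genes changed direction under any alternative. Of the 8 past the threshold, 4 (Tet2, Hdac9, Hdac10 and Chd2) passed under all 16 alternatives that kept the adjustment over 15846 genes. Of the other 25, 9 passed under at least 1 of these and 16 under none. As reported, 6 members were higher and 2 lower. TMM scaling gave 11 higher members and 5 higher genes of the other chromatin list. The DESeq2 Wald test gave 11 higher and 4 lower members and 5 higher other chromatin genes. Adjustment over the tested listed genes alone gave 18 higher and 11 lower members, 7 higher and 10 lower other chromatin genes and 2979 genes in all; fewer genes enter that adjustment, and they were listed for a low p. With single mice left out, members numbered 2 to 7 higher and 2 to 3 lower, other chromatin genes 3 to 5 higher and 2 to 5 lower, all genes 835 to 1230, and the Foxp1 log2 fold change was 3.07 to 3.59. Otherwise the cause was not tested. Correlations over many genes gave little sign that replicate numbers pair the mice. The deviations of mice with 1 number had correlations of 0.0147 to 0.0829, and 1 of 5 was closest to its own number. Pairing in single genes was not tested. With the replicate block 4 members were higher and 3 lower (other chromatin genes 2 and 3), the count over all genes was 907, and the Foxp1 value was 3.15. The lowest raw count of a chromatin gene in any mouse was 22.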
